A study of Mus musculus with 6 samples.

Results

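Chemokines and their receptors were followed in the liver RNA of aged CgA-KO and WT mice. The members are the rows of the count table whose symbol begins with Ccl, Cxcl, Ccr or Cxcr and a number, together with Cx3cl1, Cx3cr1, Xcl1 and the atypical receptors Ackr1, Ackr2, Ackr3 and Ackr4. These are 58 of the 32212 rows, 36 ligands and 22 receptors. With a summed count of at least 10 over the 6 libraries, 28 ligands and 20 receptors were kept for description. The libraries came from the livers of male mice on the C57BL/6 background, 2 yr of age and on normal chow, 3 of them WT and 3 CgA-KO. CgA-KO mice carry a knockout of Chga, the gene of the prohormone chromogranin A (CgA), and the labels do not say in which tissues or cells it was deleted. One poly(A)-selected library was made per mouse, so replicates are separate animals.

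Chemokines are small secreted proteins that guide leukocytes along a concentration gradient. They are named by the spacing of their first cysteines, as CC, CXC, CX3C or XC ligands. Most of their receptors are coupled to Gi-type G proteins and start actin-driven migration, while the atypical receptors bind ligands and remove them without that signal. In the liver, Kupffer cells (the resident macrophages), sinusoidal endothelium, hepatocytes and stellate cells are known sources of ligands, and the receptors sit mainly on the leukocytes that are drawn in.

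Total counts ran from 10558616 to 31087453 per library, and a level of 3 counts, taken as the floor of detection, corresponded to 0.0965 to 0.284 CPM (counts relative to the library total), for counting error only. Chga had 0 counts in each of the 6 libraries, so it gives no check of the genotype labels. A few libraries stood apart in leukocyte genes. CgA-KO replicate 2 had the highest sums of T cell, natural killer (NK) cell and neutrophil markers, and WT replicate 1, the library of lowest depth, was the highest of the WT libraries in Kupffer, monocyte, T, NK and B cell markers. Values without one of these libraries are given beside the results that they move most. Levels below are CPM after TMM scaling (trimmed mean of M values), with the SD over 3 livers. Differences are log2 fold changes of CgA-KO over WT from edgeR's quasi-likelihood test over all 13867 genes that passed the filter, and a gene is called at an adjusted p-value under 0.05. With 3 livers in each group, the smallest p that exact permutation allows for a single gene is 0.1.

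Chemokine RNA was higher in CgA-KO livers for 9 ligands and lower for 1 ligand (Ccl27a), among the 21 ligands tested, and 11 were not called. Over all genes tested, 8.6% were called higher and 3.84% lower. The risen ligands were Ccl3, Ccl4, Ccl5, Ccl6, Cxcl9, Cxcl10, Cxcl14, Cxcl16 and Cx3cl1. Of the 14 receptors tested, 4 rose, among them Ccr2, Cxcr3 and Cxcr6, while Ackr4 fell and 9 were not called. The median log2 fold change was 1.92 over the ligands and 1.74 over the receptors, against -0.01 over all genes tested. All 3 CgA-KO libraries lay above all 3 WT libraries for 9 of the 21 ligands and 7 of the 14 receptors, where 19.0% of all genes tested did, and below them for 3 ligands and 1 receptor, where 14.6% of all genes did.

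**Figure D1:**
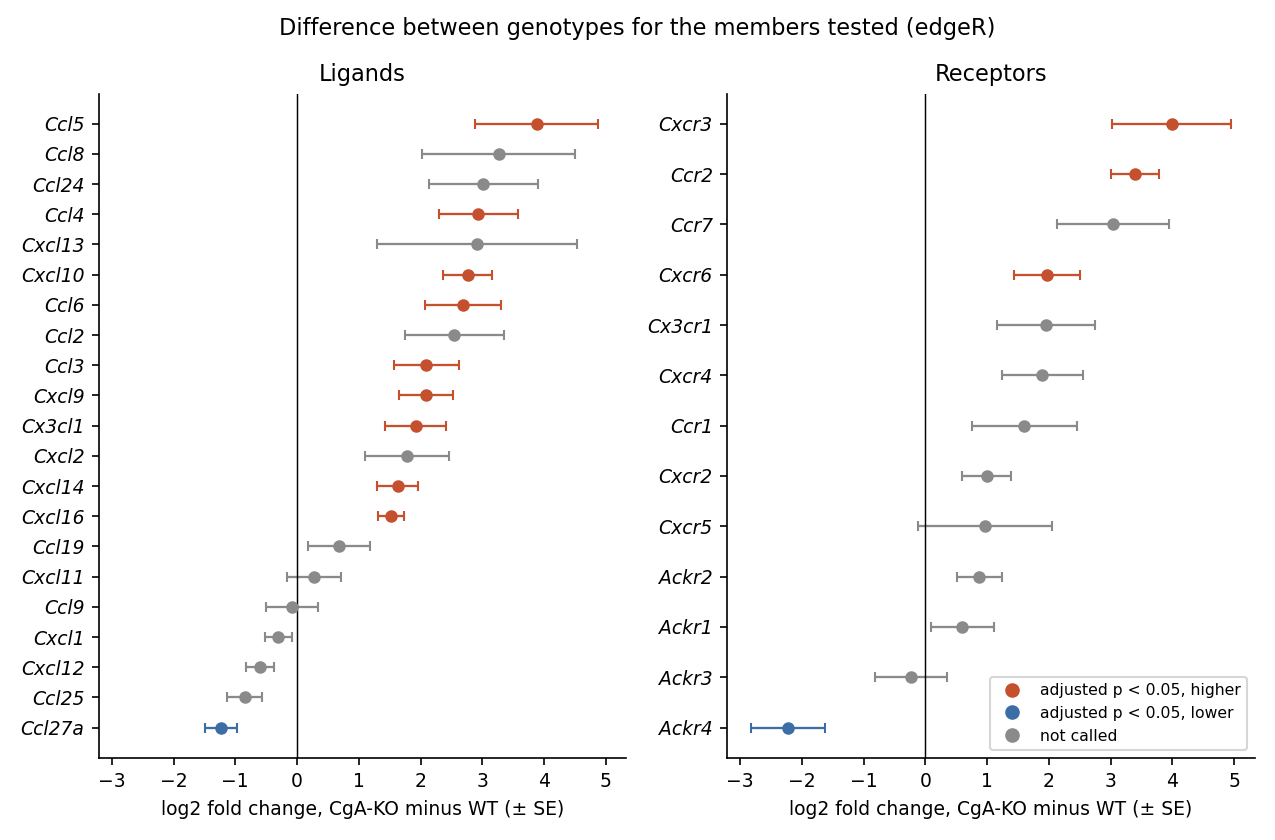
Log2 fold change of CgA-KO over WT with its standard error (x axis) for the 21 ligands tested and 13 of the receptors tested. Red points were called higher, blue points lower and grey points were not called; the called rises run from 1.52 (Cxcl16) to 3.99 (Cxcr3), and the called falls are Ccl27a at -1.24 and Ackr4 at -2.23.

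The filter on low counts bears on these numbers. Ccl4 passed it through the CgA-KO libraries alone and Ackr4 through the WT libraries alone, so both had to differ. The counts above include Ccl4 and Ackr4, and the calls and separation of these genes add no support. Ccl3, Ccl5, Cx3cl1, Cxcr3 and Cxcr6 had fewer than 3 WT libraries at the cutoff of 0.436 CPM, in counts over the library total. They needed CgA-KO libraries to pass, so their calls are not free of the filter either. With at least 10 summed counts, 7 ligands and 6 receptors were not tested. Single libraries bear on them too. The count of called ligands, 10 in all, was 2 and 3 when WT replicates 2 and 3 were left out in turn, and 5 and 6 when CgA-KO replicates 2 and 3 were. The count of called receptors, 5 in all, was 2 when either of WT replicates 2 and 3 was left out, and 3 when CgA-KO replicate 2 was. Across all genes, the called higher genes fell from 1193 to 498 without WT replicate 2 and to 287 without WT replicate 3. They fell to 706 without CgA-KO replicate 2 and to 952 without CgA-KO replicate 3. Cxcl10, Cxcl16 and Ccr2 were called in each of the 6 fits that left out 1 library. DESeq2, the tool that the study names, called 12 ligands and 6 receptors higher and 3 ligands and 1 receptor lower, where 11.6% of all genes were higher and 7.15% lower.

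The ligands of CXCR3, which type I and II interferons are known to induce and which attract effector T and NK cells, are Cxcl9, Cxcl10 and Cxcl11. The gene annotation classes Cxcl11 as a polymorphic pseudogene, and whether its RNA gives a working ligand in these mice was not tested. They lie side by side on chromosome 5 of GRCm38, from 92321347 to 92365485, all on the minus strand. Cxcl9 and Cxcl10 rose. The bases just before the start sites of Cxcl9 and Cxcl10 are shown, since the pair moved together in adjacent positions. They are the 250 bases upstream of the RefSeq start site, 5′ to 3′ on the gene's strand (GRCm38.p6), at chr5:92328080-92328329 for Cxcl9 and chr5:92348890-92349139 for Cxcl10, with motif matches in capitals.
Cxcl9: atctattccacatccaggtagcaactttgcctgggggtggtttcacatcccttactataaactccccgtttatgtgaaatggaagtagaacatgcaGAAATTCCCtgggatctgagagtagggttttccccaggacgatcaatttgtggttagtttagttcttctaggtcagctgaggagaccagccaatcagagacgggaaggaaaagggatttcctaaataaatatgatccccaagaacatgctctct
Cxcl10: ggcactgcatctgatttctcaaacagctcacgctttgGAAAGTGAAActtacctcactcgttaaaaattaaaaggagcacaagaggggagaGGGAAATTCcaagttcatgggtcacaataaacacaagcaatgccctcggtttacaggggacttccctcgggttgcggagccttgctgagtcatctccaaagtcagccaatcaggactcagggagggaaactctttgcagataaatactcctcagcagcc

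The motifs searched, on both strands, were TTCNNNGAA (the gamma-activated site), GAAANNGAAA (the core of the interferon-stimulated response element) and GGGANNTTC (a form of the kappa-B site). The capitals are a match to the kappa-B form from 154 to 146 bases before the start of Cxcl9, on the opposite strand. In Cxcl10 they are a match to the interferon-stimulated response element core from 213 to 204 bases before the start and one to the kappa-B form from 159 to 151, and these do not overlap. Of 32851 promoter windows of the same length, 2.98% held the response element core, 3.23% the kappa-B form and 7.02% the gamma-activated site. Among the members, 43 had a promoter sequence, and 3 of these genes held the response element core (Ccl19, Cxcl10 and Cxcl14), 8 the kappa-B form and 4 the gamma-activated site. A match describes the letters only, and binding was not measured. Other forms of these sites were not searched for, so a window without a match may still hold one.

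Cxcl10 had 1.97, 1.96 and 1.06 CPM in the WT livers and 7.06, 9.96 and 16.5 CPM in the CgA-KO livers. Every CgA-KO liver lay well above every WT liver, and the highest was replicate 3. Its log2 fold change was 2.76 ± 0.40 (SE, edgeR adjusted p = 0.00581), and from 2.40 to 3.04 when 1 library was left out. Cxcl10 shares exon sequence with Art3 on the opposite strand, and whether the counting used strand is not stated. Art3 had 0.88 ± 0.0927 CPM in WT livers and 2.17 ± 0.827 CPM in CgA-KO livers (log2 fold change 1.32 ± 0.42, adjusted p = 0.0736).

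Cxcl9 had 10.3, 5.11 and 3.68 CPM in WT and 14.5, 34.7 and 30.2 CPM in CgA-KO livers. The groups did not overlap, although the highest WT liver came close to the lowest CgA-KO liver. Its log2 fold change was 2.09 ± 0.43 (adjusted p = 0.0178), and the call was lost without WT replicate 2 (1.96), WT replicate 3 (1.80) or CgA-KO replicate 2 (1.88). Cxcl11, annotated as a polymorphic pseudogene, had 6.18, 2.30 and 5.51 CPM in WT and 8.03, 3.52 and 5.29 CPM in CgA-KO livers. These groups overlapped, and its log2 fold change was 0.28 ± 0.43 (adjusted p = 0.721).

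**Figure D2:**
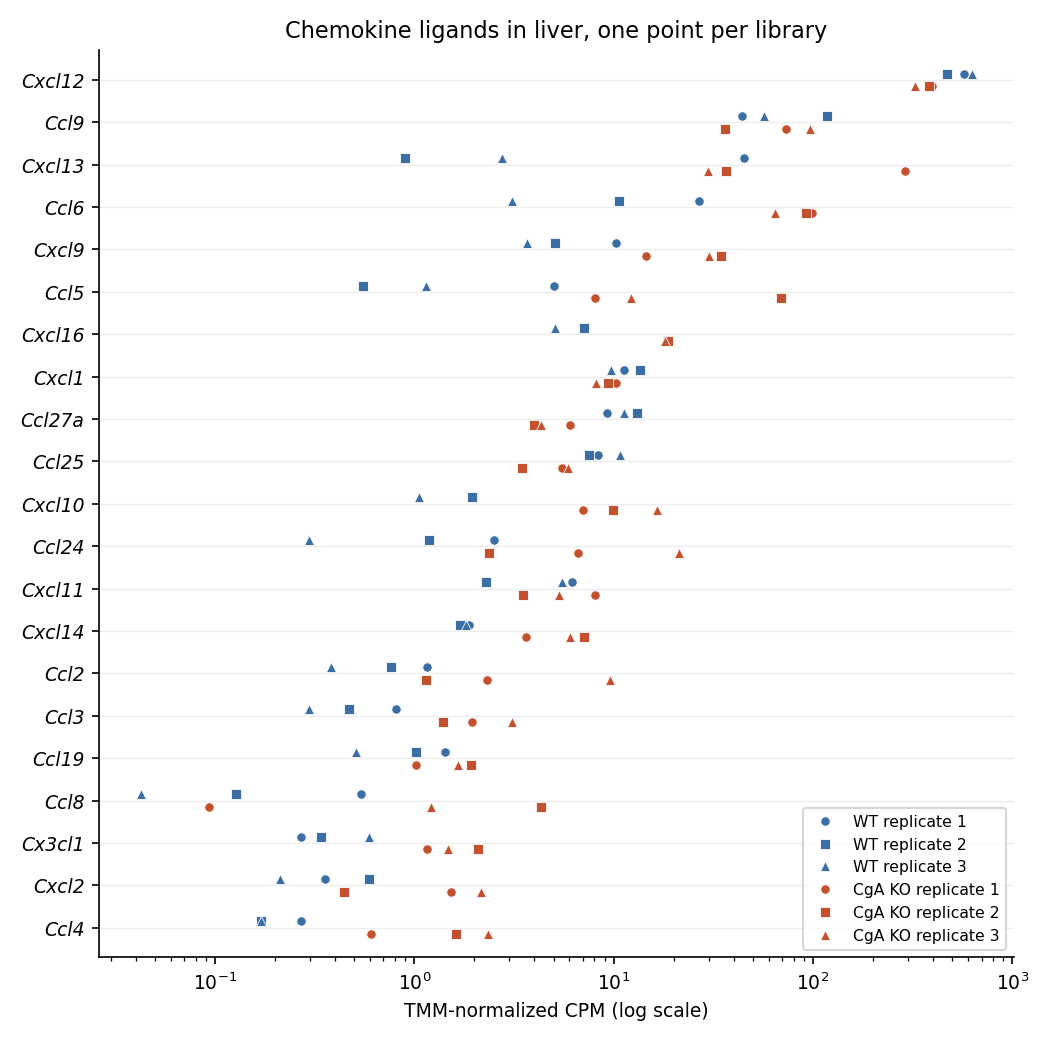
TMM-normalized CPM (x axis, log scale) of each of the 21 ligands tested, with 1 point per library, blue for WT and red for CgA-KO, and the shape giving the replicate. All CgA-KO points of Cxcl12 lie below its WT points, and the points of Cxcl16 are the tightest, from 18.1 to 18.7 CPM in CgA-KO livers.

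The CC ligands of the CCR1 group draw in monocytes, macrophages and T cells. Ccl5, Ccl9, Ccl6, Ccl3 and Ccl4 make 1 gene cluster on chromosome 11, from 83525778 to 83664683. All of them but Ccl9 rose. Ccl6 and Ccl9 are neighbours on the same strand, and both encode CCR1 ligands. Their upstream bases are shown because the pair parted, at chr11:83593088-83593337 for Ccl6 and chr11:83578637-83578886 for Ccl9 (GRCm38.p6, minus strand, 5′ to 3′). Neither window held any of the motifs searched, so no base is in capitals.
Ccl6: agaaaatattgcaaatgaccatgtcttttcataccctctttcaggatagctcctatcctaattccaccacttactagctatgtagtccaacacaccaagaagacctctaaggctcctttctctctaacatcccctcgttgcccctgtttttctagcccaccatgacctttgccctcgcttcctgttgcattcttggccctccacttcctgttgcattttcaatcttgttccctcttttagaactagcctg
Ccl9: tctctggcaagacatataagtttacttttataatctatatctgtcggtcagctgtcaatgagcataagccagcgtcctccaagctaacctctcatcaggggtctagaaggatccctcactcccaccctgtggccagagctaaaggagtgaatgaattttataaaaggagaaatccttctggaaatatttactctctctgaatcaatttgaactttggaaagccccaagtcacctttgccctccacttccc

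Ccl6 had 26.8, 10.6 and 3.09 CPM in WT and 98.3, 92.3 and 64.7 CPM in CgA-KO livers. All CgA-KO livers lay above the WT livers, which spread widely. Ccl6 differed by 2.69 ± 0.62 on the log2 scale (adjusted p = 0.025), and by 3.69 without WT replicate 1 and 2.20 without WT replicate 3. The call was lost without WT replicate 2, CgA-KO replicate 1 or CgA-KO replicate 2 (2.55, 2.60 and 2.67), and with filters of at least 10 (adjusted p = 0.0558) or at least 1 summed count (adjusted p = 0.15), within a range of 5.3e-05 to 0.154 over all settings. Ccl9 had 44.1, 117 and 56.8 CPM in WT and 73.4, 36.2 and 96.5 CPM in CgA-KO livers. The ranges overlapped, with the lowest liver in CgA-KO and the highest in WT. The log2 fold change of -0.08 ± 0.43 (adjusted p = 0.923) turned positive under scaling by library size alone (0.27) and when WT replicate 2 (0.44) or CgA-KO replicate 2 (0.27) was left out. In WT livers the level of Ccl9 per kb of transcript was 24.2 CPM and that of Ccl6 was 9.37 CPM, and in CgA-KO livers the order was the other way round, with 22.9 CPM per kb for Ccl9 and 59.1 CPM per kb for Ccl6.

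Ccl5, a ligand that T and NK cells are known to make in large amounts, had 5.02, 0.553 and 1.14 CPM in WT and 8.03, 69.0 and 12.2 CPM in CgA-KO livers. CgA-KO replicate 2 held most of the signal, and replicate 1 was little above WT replicate 1. Ccl5 rose by 3.88 ± 1.00 on the log2 scale (adjusted p = 0.0376). Without WT replicate 1 it was 5.16, and without CgA-KO replicate 2 it was 2.31 (adjusted p = 0.132). The call was also lost without WT replicate 2 (3.37) or WT replicate 3 (3.54). Over all settings tried the adjusted p of Ccl5 ran from 0.0155 to 0.215.

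Ccl3 and Ccl4, the macrophage inflammatory proteins, were low in every liver. Ccl3 had 9, 11 and 7 counts in WT and 42, 44 and 69 counts in CgA-KO libraries, a log2 fold change of 2.09 ± 0.53 (adjusted p = 0.0348). Ccl4 had 3, 4 and 4 counts in WT and 13, 51 and 52 in CgA-KO libraries, a log2 fold change of 2.94 ± 0.64 (adjusted p = 0.021). For both genes the WT livers were below 1 CPM and all CgA-KO livers were higher. Ccl4 passed the count filter through the CgA-KO libraries alone, so it had to differ and its call adds no support. The call of Ccl3 was lost in 4 of the 6 fits without 1 library (WT replicates 2 and 3, CgA-KO replicates 1 and 3) and so was that of Ccl4 (WT replicates 2 and 3, CgA-KO replicates 2 and 3), with values from 1.76 to 2.19 and from 2.53 to 2.93.

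The monocyte-attracting CC ligands, which include the CCR2 ligands Ccl2, Ccl7 and Ccl12, lie in a second cluster on chromosome 11, from 82035571 to 82305690. None of the 2 tested, Ccl2 and Ccl8, was called by edgeR. At an unadjusted p-value under 0.05 both were higher, as were 17.2% of all genes tested, and DESeq2 called both. Ccl2, whose product is the main monocyte attractant, had 1.16, 0.766 and 0.381 CPM in WT and 2.32, 1.14 and 9.59 CPM in CgA-KO livers. CgA-KO replicate 3 held most of the signal, and replicate 2 lay just below the highest WT liver. For Ccl2 the log2 fold change was 2.55 ± 0.80 (adjusted p = 0.0715), and 1.24 without CgA-KO replicate 3. Without CgA-KO replicate 2 it was called (3.05, adjusted p = 0.0485), and over all settings its adjusted p ran from 0.00876 to 0.258.

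Ccl7, the neighbour of Ccl2, was too low to be tested and had the same library on top. Its counts were 3, 3 and 2 in WT and 14, 10 and 116 in CgA-KO libraries. Ccl8 had 6, 3 and 1 counts in WT and 2, 137 and 27 in CgA-KO libraries, with replicate 2 highest and replicate 1 within the WT range (log2 fold change 3.27 ± 1.24, adjusted p = 0.119, and 1.76 without replicate 2). Ccl12 had 0, 1 and 1 counts in WT and 6, 12 and 13 in CgA-KO libraries. Ccl12 thus stood above the floor of 3 counts in CgA-KO libraries only, and it was called when all rows of at least 10 summed counts were tested (3.42, adjusted p = 0.0446, against 0.0467 with at least 1 summed count). It reached 10 summed counts only through the CgA-KO libraries, so the call with that filter adds no support. The eosinophil attractant Ccl24, a CCR3 ligand that macrophages make, had 28, 28 and 7 counts in WT and 143, 75 and 477 in CgA-KO libraries. CgA-KO replicate 3 was highest again, and replicate 2 lay within the WT range in CPM (log2 fold change 3.02 ± 0.89, adjusted p = 0.0573). Ccl24 was called without CgA-KO replicate 2 (3.54, adjusted p = 0.0466) and was at 1.85 without CgA-KO replicate 3, and its adjusted p ran from 0.00179 to 0.23 over all settings.

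Among the other CXC ligands, Cxcl16 and Cxcl14 rose. Cxcl16, the membrane-bound ligand of CXCR6 and a scavenger receptor on macrophages and endothelium, had 7.17, 7.10 and 5.08 CPM in WT and 18.7, 18.6 and 18.1 CPM in CgA-KO livers. The 3 CgA-KO livers were nearly equal, and the groups were far apart. Its log2 fold change was 1.52 ± 0.21 (adjusted p = 0.00513), and from 1.37 to 1.65 when 1 library was left out. Zmynd15, whose exons overlap those of Cxcl16 on the opposite strand, had a log2 fold change of 0.14 ± 0.48 (adjusted p = 0.88). Cxcl14, which is made by epithelial and stromal cells, had 1.88, 1.70 and 1.82 CPM in WT and 3.62, 7.07 and 6.01 CPM in CgA-KO livers. The WT livers were nearly equal, and replicate 1 was the lowest of the CgA-KO livers (1.63 ± 0.34, adjusted p = 0.0174). The call of Cxcl14 was lost without WT replicate 2 (1.59), WT replicate 3 (1.64) or CgA-KO replicate 2 (1.46).

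The upstream window of Cxcl14 held a gamma-activated site from 191 to 183 and a response element core from 172 to 163 bases before the start. Among the called ligands with a promoter sequence (Ccl27a, Ccl3, Ccl6, Cx3cl1, Cxcl9, Cxcl10 and Cxcl14), Cxcl9, Cxcl10 and Cxcl14 were the ones with any match to the strings searched. Of the ELR CXC ligands, which attract neutrophils, Cxcl1, Cxcl2 and Cxcl3 held the kappa-B form, each at a site that matches on both strands, and Cxcl1 and Cxcl2 were not called.

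Cxcl12, the CXCR4 ligand that retains haematopoietic cells and is made by stromal and endothelial cells, had the highest level per kb of transcript in WT livers. Its level was 572, 467 and 629 CPM in WT and 395, 380 and 324 CPM in CgA-KO livers. All CgA-KO livers lay below all WT livers, at a mean of 556 ± 81.9 CPM in WT livers and 366 ± 37.5 CPM in CgA-KO. The log2 fold change of -0.60 ± 0.22 was not called (adjusted p = 0.113), while DESeq2 called it (adjusted p = 0.0133), and over all settings the adjusted p ran from 0.0133 to 0.375. Cxcl12 alone made up 71.4 to 84.4% of all ligand counts, without scaling for length, in WT and 41.4 to 52.5% in CgA-KO libraries. The summed level of the ligands was 655 to 757 CPM in WT and 672 to 955 CPM in CgA-KO livers with Cxcl12, and 116 to 187 CPM and 343 to 560 CPM without it.

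Cxcl13, the B cell attractant and ligand of CXCR5, differed widely among the livers of either genotype. It had 44.9, 0.893 and 2.75 CPM in WT and 288, 36.5 and 29.7 CPM in CgA-KO livers. Replicate 1 was highest in both genotypes, and WT replicate 1 lay above CgA-KO replicates 2 and 3. Its log2 fold change was 2.91 ± 1.62 (adjusted p = 0.293), 1.09 without CgA-KO replicate 1 and 6.05 without WT replicate 1 (adjusted p = 0.0501). The summed level of 8 B and plasma cell markers was 121, 32.0 and 21.2 CPM in WT and 121, 41.1 and 45.8 CPM in CgA-KO livers, highest in the same libraries. Of these 8 markers, 0 were called by edgeR, 0 by DESeq2 and 0 had an unadjusted p-value under 0.05, and their part in the Cxcl13 values was not tested. Whether more cells of a type or more RNA per cell underlie a bulk level cannot be told apart, here or in the values that follow.

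The homeostatic CC ligands place lymphocytes in resting tissue, and they were the ligand class with a called fall. Ccl27a, a CCR10 ligand, had 9.23, 13 and 11.3 CPM in WT and 6.03, 3.96 and 4.30 CPM in CgA-KO livers. The groups did not overlap, and the log2 fold change was -1.24 ± 0.26 (adjusted p = 0.0179). It was -0.94 and not called under scaling by library size alone, a setting that moved the median of all genes from -0.01 to 0.26. The call was also lost without WT replicate 2 (-1.11), WT replicate 3 (-1.23), CgA-KO replicate 2 (-1.08) or CgA-KO replicate 3 (-1.13). Ccl27a shares exon sequence with Il11ra1 on the opposite strand, which had a log2 fold change of -0.23 ± 0.18 (adjusted p = 0.418). Ccl25, the CCR9 ligand, had 8.33, 7.53 and 10.8 CPM in WT and 5.52, 3.46 and 5.87 CPM in CgA-KO livers. These groups did not overlap either, but Ccl25 was not called (-0.85 ± 0.28, adjusted p = 0.0841). DESeq2 called it lower (adjusted p = 0.0447), and over all settings the adjusted p ran from 0.0447 to 0.286. Ccl19, a CCR7 ligand, had a log2 fold change of 0.68 ± 0.50 (adjusted p = 0.403), and Ccl21a and Ccl28 were too low to be tested, with 1 to 12 and 1 to 18 counts per library.

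Of the neutrophil-attracting ELR CXC ligands, 0 of the 2 tested were called by edgeR or by DESeq2, and 1, Cxcl2, had an unadjusted p-value under 0.05. Cxcl1 was present in every liver, with 11.3, 13.5 and 9.66 CPM in WT and 10.3, 9.42 and 8.16 CPM in CgA-KO livers. The groups overlapped, and its log2 fold change was -0.30 ± 0.22 (adjusted p = 0.391). Cxcl2 had 4, 14 and 5 counts in WT and 33, 14 and 48 in CgA-KO libraries (1.78 ± 0.68, adjusted p = 0.121), with CgA-KO replicate 2 inside the WT range in CPM. Cxcl5 had 1 count in each WT library and 3 or 4 in CgA-KO libraries.

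Cx3cl1, the membrane-bound ligand of CX3CR1, had 3, 8 and 14 counts in WT and 25, 66 and 33 counts in CgA-KO libraries. In CPM the groups did not overlap, at 0.401 ± 0.17 in WT and 1.58 ± 0.474 in CgA-KO. The log2 fold change was 1.92 ± 0.49 (adjusted p = 0.036), and the call was lost in each of the 6 fits without 1 library, where the values lay between 1.70 and 2.33 and the highest adjusted p was 0.104. Xcl1, an attractant of cross-presenting dendritic cells, had 0, 3 and 3 counts in WT and 20, 10 and 8 in CgA-KO libraries and was not tested, and neither was Ccl22, a CCR4 ligand with 2, 2 and 1 counts in WT and 7, 15 and 14 in CgA-KO libraries. Ligands under 10 summed counts were Ccl1, Ccl11, Ccl17, Ccl20 and Ccl26, and Cxcl3, Cxcl15 and Cxcl17 had no count in any library.

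The receptors together summed to 11.2 to 26.4 CPM in WT livers and 70.3 to 111 CPM in CgA-KO livers. The called rises described here, Ccr2, Cxcr3 and Cxcr6, were of receptors of monocytes, T cells and NK cells. Ccr2 and Cxcr6 lie in a receptor cluster on chromosome 9, from 123678439 to 124147699.

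**Figure D3:**
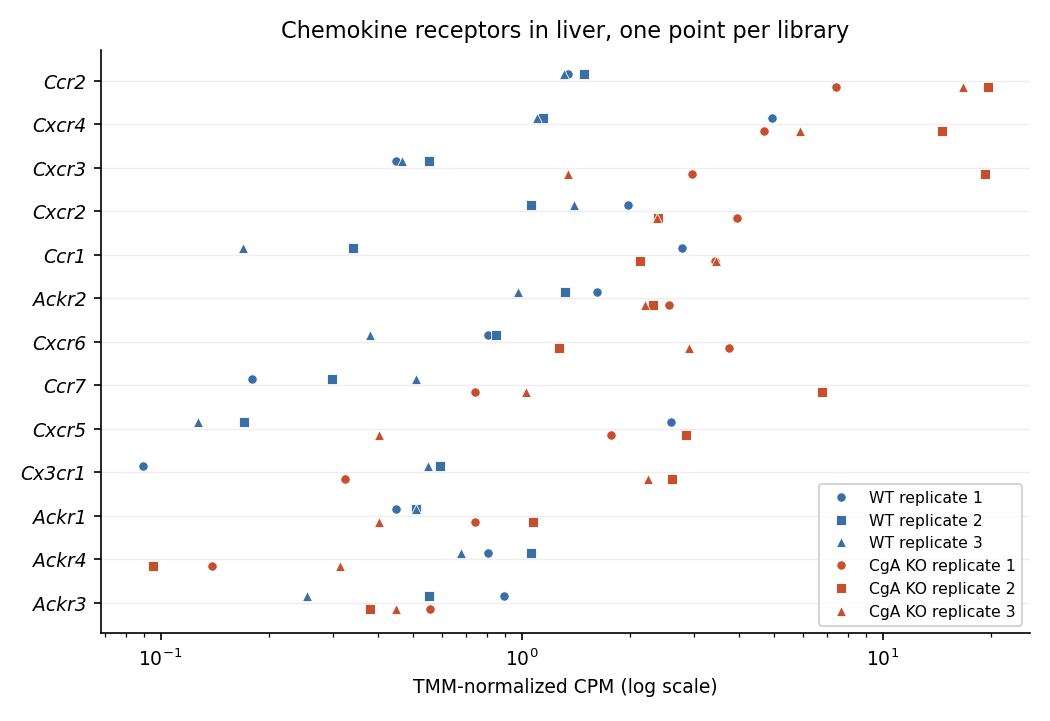
TMM-normalized CPM (x axis, log scale) of 13 of the 14 receptors tested, with 1 point per library, blue for WT and red for CgA-KO. Ccr2 shows WT and CgA-KO points apart, at 1.38 and 14.6 CPM on average, while a single CgA-KO point, replicate 2, stands far to the right for Cxcr3 and Ccr7.

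Ccr2, the receptor of Ccl2 that marks inflammatory monocytes, had 1.34, 1.49 and 1.31 CPM in WT and 7.43, 19.5 and 16.7 CPM in CgA-KO livers. The WT livers were nearly equal and all CgA-KO livers were far above them. Ccr2 rose by 3.39 ± 0.39 on the log2 scale (adjusted p = 0.00322), and from 3.16 to 3.74 without 1 library.

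Cxcr3, the receptor of Cxcl9, Cxcl10 and Cxcl11 on effector T and NK cells, had 5, 13 and 11 counts in WT and 64, 607 and 30 counts in CgA-KO libraries. CgA-KO replicate 2 held 81.7% of the summed CgA-KO level. Cxcr3 rose by 3.99 ± 0.96 on the log2 scale (adjusted p = 0.0291). Without CgA-KO replicate 2 it was 2.16 (adjusted p = 0.0535), and the call was also lost without WT replicate 1 (3.98), 2 (4.09) or 3 (3.94). Its adjusted p ran from 2.73e-05 to 0.177 over all settings. Cxcr6, the receptor of Cxcl16 on resident T and NKT cells, had 9, 20 and 9 counts in WT and 81, 40 and 65 in CgA-KO libraries. For Cxcr6, CgA-KO replicate 2 was the lowest of the 3 and still above the WT livers in CPM (1.97 ± 0.54, adjusted p = 0.0452). The call was lost without WT replicate 2 (2.22), WT replicate 3 (1.66), CgA-KO replicate 1 (1.67) or CgA-KO replicate 3 (1.93). It was also lost with limma-voom (adjusted p = 0.0831) and with all rows of at least 10 summed counts (adjusted p = 0.0505), and over all settings the adjusted p of Cxcr6 ran from 0.0103 to 0.168.

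Of the receptors not called, Ccr7 and Cxcr4 also peaked in CgA-KO replicate 2. Ccr7, which takes T cells and dendritic cells to lymph nodes, had 2, 7 and 12 counts in WT and 16, 214 and 23 in CgA-KO libraries. All CgA-KO livers were above WT in CPM, and the log2 fold change was 3.04 ± 0.91 (adjusted p = 0.0597), or 1.39 without CgA-KO replicate 2. Ccr7 was called without CgA-KO replicate 1 (3.52, adjusted p = 0.0479) or 3 (3.46, adjusted p = 0.0488), and its adjusted p ran from 0.00546 to 0.218. Cxcr4, the receptor of Cxcl12, had 4.93, 1.15 and 1.1 CPM in WT and 4.69, 14.6 and 5.92 CPM in CgA-KO livers. WT replicate 1 lay above CgA-KO replicate 1 (1.89 ± 0.66, adjusted p = 0.0937, and 1.25 without CgA-KO replicate 2).

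The calls of Cxcr4, Ccr1 and Cxcr5 changed when WT replicate 1 was left out. Ccr1, the receptor of Ccl3, Ccl5, Ccl6 and Ccl9 on myeloid cells, had 2.78, 0.340 and 0.169 CPM in WT and 3.44, 2.12 and 3.45 CPM in CgA-KO livers. Cxcr5, the receptor of Cxcl13 on B cells and follicular T cells, had 2.60, 0.170 and 0.127 CPM in WT and 1.76, 2.85 and 0.403 CPM in CgA-KO livers. In both genes WT replicate 1 was inside the CgA-KO range and the other WT livers were below it. With all libraries the log2 fold change was 1.60 ± 0.85 for Ccr1 (adjusted p = 0.252) and 0.97 ± 1.08 for Cxcr5 (adjusted p = 0.602). Without WT replicate 1, Ccr1 was at 3.58 (adjusted p = 0.00366), Cxcr5 at 3.50 (adjusted p = 0.0348) and Cxcr4 at 2.94 (adjusted p = 0.00979), all called. With all libraries, DESeq2 called Cxcr4 (adjusted p = 0.0244) and limma-voom called Ccr1 (adjusted p = 0.0462). Over all settings the adjusted p ran from 0.00366 to 0.521 for Ccr1, from 0.0348 to 0.892 for Cxcr5 and from 0.00979 to 0.304 for Cxcr4. Bcl9l overlaps Cxcr5 on the opposite strand and had 63.9 ± 16.2 CPM in WT livers and 60.5 ± 2.16 CPM in CgA-KO livers.

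Cx3cr1, the fractalkine receptor of patrolling monocytes, had 1, 14 and 13 counts in WT and 7, 82 and 50 in CgA-KO libraries (1.95 ± 0.80, adjusted p = 0.143). Replicate 1 was the lowest of both genotypes, and the groups overlapped. The neutrophil receptor Cxcr2 had 1.97, 1.06 and 1.4 CPM in WT and 3.95, 2.38 and 2.38 CPM in CgA-KO livers, apart but not called (0.99 ± 0.40, adjusted p = 0.137). The eosinophil receptor Ccr3 was at 1 count in each WT library and at 6, 10 and 317 in CgA-KO libraries. Replicate 3, the library in which its ligand Ccl24 was also highest, held 96.0% of the summed CgA-KO level of Ccr3. Ccr1l1, a receptor-like neighbour of Ccr1, had 0, 1 and 0 counts in WT and 26, 7 and 6 in CgA-KO libraries, and was called when all rows of at least 10 summed counts were tested (adjusted p = 0.0466, against 0.0281 with at least 1 summed count). Ccr1l1 also reached 10 summed counts only through the CgA-KO libraries, so the call with that filter adds no support. Ccr6 had 15, 0 and 2 counts in CgA-KO libraries and 0 in each WT library, and Ccr4, Ccr9 and Cxcr1 had 1 to 11 counts in any library. Ccr10 had 2 counts in all and Ccr8 none.

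The atypical receptors gave 1 call, a fall of Ackr4. It passed the count filter through the WT libraries alone, so it had to differ and its call adds no support. Ackr4, which clears Ccl19, Ccl21 and Ccl25, had 9, 25 and 16 counts in WT and 3, 3 and 7 counts in CgA-KO libraries. The groups did not overlap in CPM, at 0.849 ± 0.197 in WT and 0.183 ± 0.116 in CgA-KO. The log2 fold change was -2.23 ± 0.59 (adjusted p = 0.0426). The call of Ackr4 was lost in 5 of the 6 fits without 1 library (all but that without CgA-KO replicate 3), with values from -1.83 to -2.37, and under scaling by library size alone (-1.92). Acad11, whose exons overlap those of Ackr4 on the opposite strand, stood at 295 ± 26.4 CPM in WT livers and 241 ± 13.7 CPM in CgA-KO livers (-0.29 ± 0.20, adjusted p = 0.365). Ackr2, which clears inflammatory CC ligands, had 1.61, 1.32 and 0.974 CPM in WT and 2.55, 2.31 and 2.20 CPM in CgA-KO livers, apart but not called (0.87 ± 0.36, adjusted p = 0.15). Ackr1 (0.60 ± 0.51, adjusted p = 0.484) and Ackr3, which takes up Cxcl12 (-0.23 ± 0.58, adjusted p = 0.832), overlapped between the genotypes. Ackr1 shares exon sequence with Cadm3 on the same strand. Cadm3 had a log2 fold change of 0.84 ± 0.28 (adjusted p = 0.0876), with every CgA-KO library above every WT library.

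Ligands and receptors were then set side by side as known pairs. Of 37 pairs listed, both partners were tested in 22. In 6 pairs both rose, among them Cxcl9 and Cxcl10 with Cxcr3 and Cxcl16 with Cxcr6. In 2 pairs the receptor alone was called (Ccl2 with Ccr2 and Cxcl11 with Cxcr3) and in 4 the ligand alone (Ccl3, Ccl5 and Ccl6 with Ccr1, and Cx3cl1 with Cx3cr1). In 8 pairs neither was called, among them Cxcl12 with Cxcr4, where the ligand stood at -0.60 and the receptor at 1.89, and in the other 2, Ccl19 and Ccl25 with Ackr4, the receptor fell. The pairs share members, so these counts are not independent. They also include Ccl4 and Ackr4, which had to differ by the filter, and Cxcl11, which is annotated as a polymorphic pseudogene.

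**Figure D4:**
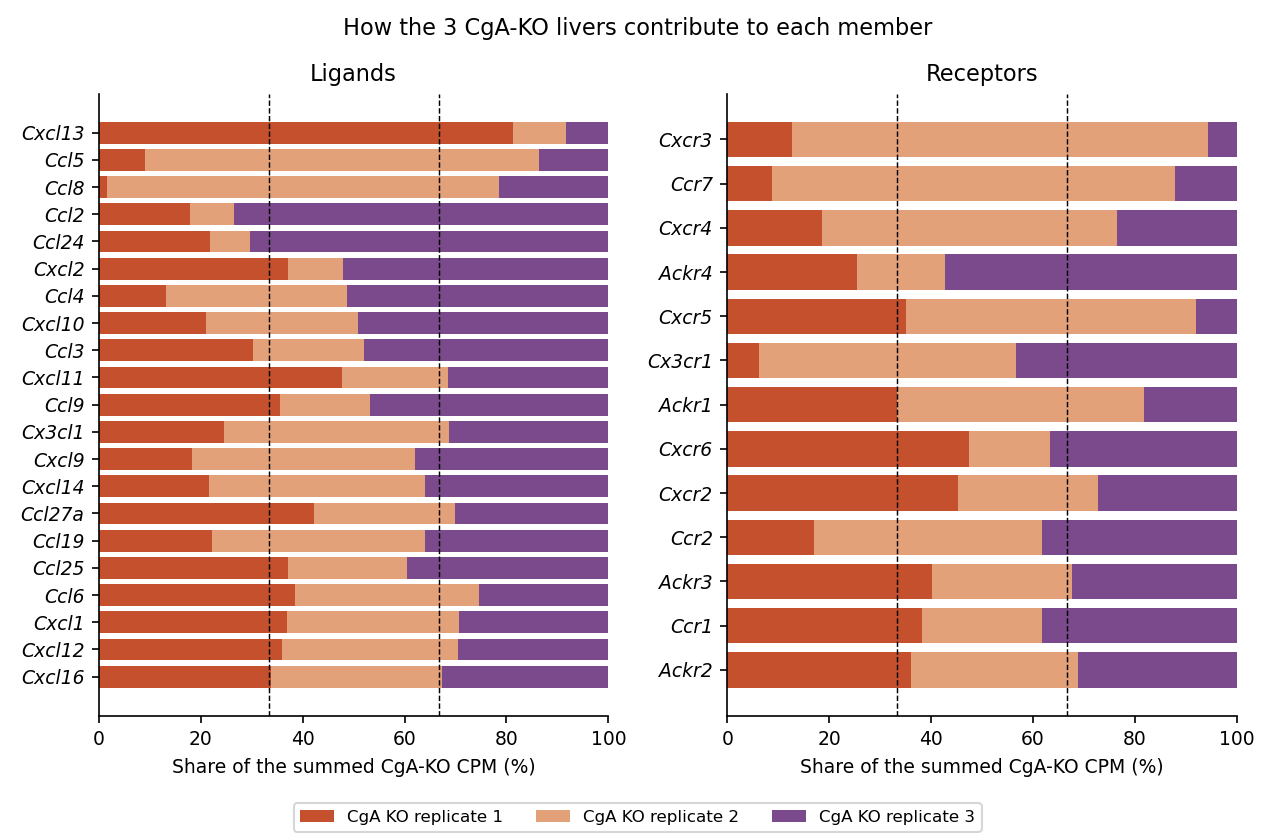
Share of the summed CgA-KO level held by each of the 3 CgA-KO livers (x axis, percent of TMM-normalized CPM), for the 21 ligands tested and 13 of the receptors tested, sorted by the largest share. The dashed lines mark equal shares; Cxcl16 lies on them, while replicate 1 holds 81.3% of Cxcl13, replicate 2 holds 77.3% of Ccl5 and replicate 3 holds 73.5% of Ccl2.

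The CgA-KO livers did not share 1 order. Replicate 1 held 81.3% of the summed CgA-KO level of Cxcl13. Replicate 2 held 77.3% of Ccl5, 76.9% of Ccl8, 81.7% of Cxcr3 and 79.3% of Ccr7, and replicate 3 held 73.5% of Ccl2, 84.3% of Ccl7 and 70.3% of Ccl24. For Cxcl16, Ccl6 and Ccr1, the top 2 livers differed by a factor of 1.00 to 1.06. Of the 48 members described, 16 were highest in CgA-KO replicate 1, 15 in replicate 2 and 17 in replicate 3.

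Marker lists of liver and blood cells were given beside these values. The 10 Kupffer cell markers summed to 342, 154 and 131 CPM in WT and 2057, 1942 and 1431 CPM in CgA-KO livers, and 9 of the 10 rose, where 8.6% of all genes were called higher and 3.84% lower. The 8 monocyte markers ran from 50.7 to 151 CPM in WT and from 342 to 497 CPM in CgA-KO livers, with 4 of 8 called higher. These lists stood higher in each CgA-KO liver, and so did the stellate, neutrophil, T, NK, dendritic and platelet sums. The same held for 9 of the 21 ligands and 7 of the 14 receptors tested, and for 19.0% of all genes tested.

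The T cell markers summed to 18.2, 3.74 and 6.35 CPM in WT and 59.8, 134 and 42.9 CPM in CgA-KO livers (4 of 8 tested were called higher), and the NK cell markers to 5.19, 1.70 and 1.74 CPM and to 12.1, 62.1 and 20.4 CPM (3 of 6 tested). Both were highest in CgA-KO replicate 2, the library that was highest for Ccl5, Cxcr3 and Ccr7. Neutrophil markers also peaked there, from 7.29 to 14.2 CPM in WT and at 68.1, 308 and 51.6 CPM in CgA-KO livers (5 of 7 tested were higher), while their receptor Cxcr2 was highest in CgA-KO replicate 1. Dendritic cell markers were called higher for 3 of 5 tested and stellate cell markers for 4 of 7, while 0 of 7 hepatocyte markers were called by edgeR, 1 was lower by DESeq2 and the same number had an unadjusted p-value under 0.05. Sinusoidal endothelial markers gave 1 rise and 1 fall among 7, erythroid markers 1 and 1 among 3, and bile duct markers 0 calls among 5 by edgeR and by DESeq2, with 1 at an unadjusted p-value under 0.05. No list had a marker present in the table that was at 0 in all libraries. The part of cell numbers in the chemokine results was not tested.

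**Figure D5:**
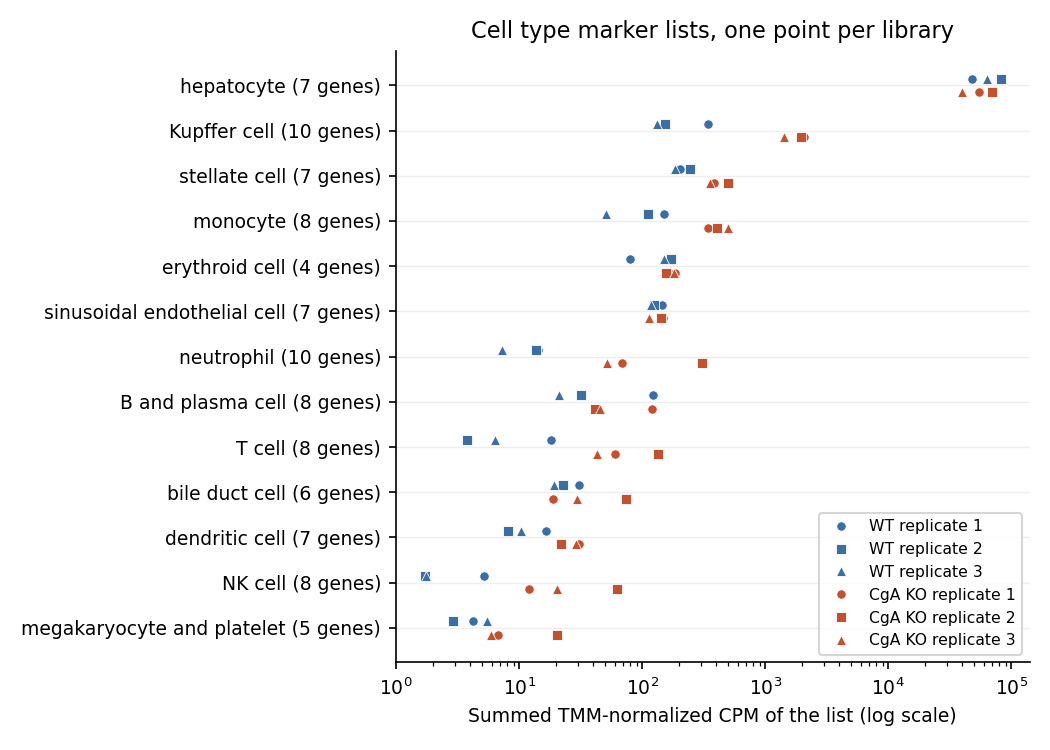
Summed TMM-normalized CPM (x axis, log scale) of each cell type marker list, with 1 point per library, blue for WT and red for CgA-KO. Kupffer, monocyte, stellate, neutrophil, T, NK, dendritic and platelet sums are higher in every CgA-KO liver than in any WT liver, while hepatocyte, sinusoidal endothelial and B cell sums overlap.

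Other genes of chemokine signalling came from 4 lists, and 27 of their 74 tested genes rose while 0 fell in edgeR's test, where 8.6% of all genes rose and 3.84% fell. At an unadjusted p-value under 0.05, 44 were higher and 1 was lower, where 17.2% and 11.9% of all genes were. DESeq2 called 38 higher and 0 lower, where 11.6% and 7.15% of all genes were. The count was 9 and 6 when WT replicates 2 and 3 were left out in turn, and 17 and 15 when CgA-KO replicates 1 and 2 were. The called higher genes over the whole table were 498 and 287 in the former pair of fits and 650 and 706 in the latter, against 1193 with all libraries. Of the other ligands and receptors, 2 of 9 rose. Cmklr1, the chemerin receptor of macrophages, had 5.02, 1.53 and 0.635 CPM in WT and 27.8, 11.5 and 9.32 CPM in CgA-KO livers (2.85 ± 0.70, adjusted p = 0.0314). Ccrl2, which presents chemerin, had a log2 fold change of 1.92 ± 0.48 (adjusted p = 0.0342).

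Of the G protein and kinase list, 10 of 28 rose. Of the migration list, 10 of 24 rose. Was, the haematopoietic actin regulator, had 2.24, 0.979 and 0.847 CPM in WT and 9.66, 15.2 and 11.4 CPM in CgA-KO livers (3.23 ± 0.40, adjusted p = 0.00429), and Rac2, the small GTPase of leukocytes, had a log2 fold change of 2.86 ± 0.60 (adjusted p = 0.0183). Of the desensitisation list, 5 of 13 rose. Rgs2 had 3.85, 3.02 and 2.24 CPM in WT and 21.8, 20.01 and 14.0 CPM in CgA-KO livers (2.63 ± 0.28, adjusted p = 0.00296), and Rgs1 had a log2 fold change of 2.62 ± 0.66 (adjusted p = 0.0343). Both encode regulators that speed the shut-off of G proteins.

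Levels between genes were compared per kb of the longest annotated transcript. In WT livers the order of the mean level was Cxcl12 (98.8 CPM per kb), Ccl9 (24.2), Cxcl13 (14.1), Ccl27a (11.2) and Ccl6 (9.37). In CgA-KO livers it was Cxcl13 (103 CPM per kb), Cxcl12 (65.1), Ccl6 (59.1), Ccl5 (44.6) and Ccl9 (22.9). The place of Cxcl13 rests on replicate 1 of each genotype and that of Ccl5 on CgA-KO replicate 2. Among receptors the highest per kb in WT was Cxcr4 (1.33 CPM per kb), and in CgA-KO livers the values were 4.65 CPM per kb for Cxcr4, 4.54 for Cxcr3 and 2.54 for Ccr2, where Cxcr3 rests on CgA-KO replicate 2.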

How the data were processed

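Livers of 3 WT and 3 CgA-KO mice gave 1 poly(A)-selected RNA library each. The values are the counts that the authors deposited, whole numbers per gene without normalization, made from transcript-level Salmon 1.4.0 estimates on GRCm38. How transcripts were summed to genes, and whether strand was used, is not given in the sources used here. All columns matched a sample (0 left over), and 78 rows repeat a symbol.

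Differences were tested in R 4.3.3 with edgeR 4.0.16 (TMM, filterByExpr with a minimum count of 10, robust quasi-likelihood fit, Benjamini-Hochberg adjustment over 13867 genes). SE is the absolute log2 fold change over the square root of F. DESeq2 1.42.0, limma-voom (limma 3.58.1), 2 other scalings, 3 other filters, a replicate block and fits without 1 library were alternatives. The scripts were tested on simulated data. Full statistics were given for called members, the 10 with the highest mean CPM and Ccl2, and for up to 2 called rises and 2 falls per pathway list. A few genes that this rule covers are not reported here. Members, classes, pairs and lists were chosen with earlier results of these data known. Positions and lengths are GENCODE M21, and promoters RefSeq GRCm38.p6. Figures used matplotlib 3.10.9. Promoters of Ccl2, Ccl4, Ccl5, Ccl7, Ccl11, Ccl24, Ccl26, Cxcl5, Cxcl11, Cxcl16, Cxcl17, Ccr7, Ccr10 and Cxcr5 were not analysed here, nor were proteins.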

Additional observations from a re-analysis of the deposited data

How the results depend on the processing

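The number of called ligands was 10, against 6 when at least 10 counts were required in every library and 2 to 9 when 1 library was left out. The last fits also called Ccl2 and Ccl24, without CgA-KO replicate 2. The number of called receptors was 5, against 3 with all rows of at least 10 summed counts (2 of the 5, and Ccr1l1), 2 with at least 10 counts in every library (5 receptors tested), and 2 to 6 without 1 library. The 6, without WT replicate 1, shared 3 with the 5 and added Ccr1, Cxcr4 and Cxcr5. Over all genes, 1193 were called higher and 533 lower with all libraries. Without 1 library, these ran from 287 to 1559 and from 120 to 542, both highest without WT replicate 1. With at least 10 counts in every library they were 953 and 428 of 12268 tested. With at least 10 summed counts they were 1059 and 454 of 16202 tested, and Ccr1l1 reached that sum only through the CgA-KO libraries. The number of called pathway genes, 27, ranged from 6 to 38 without 1 library. The median log2 fold change of the ligands was 1.15 with at least 10 counts in every library (14 tested), and that of the receptors ran from 1.27 to 2.5 without 1 library. Ccl9 turned positive in 3 settings, at 0.27 under library size alone, 0.44 without WT replicate 2 and 0.27 without CgA-KO replicate 2 (-0.36 to 0.44 over the fits without 1 library), and the cause was not tested. Of 20 named members, 5 kept direction and side of the threshold in all 14 settings. Both called falls, Ccl27a and Ackr4, were lost under library size alone. Replicate numbers were not taken to pair the mice. Deviations of same-numbered libraries from their group means correlated at 0.199, 0.0127 and -0.0659. With 3 libraries per group these deviations are tied to each other, so the values cannot settle whether the mice were paired. With the replicate number as a block, 8 ligands, 4 receptors and 32 pathway genes were called, among them Cxcl13 (3.68, adjusted p = 0.00993, in a range of 0.00993 to 0.701 over all settings) and Cx3cr1. The block fit called 1093 genes higher and 405 lower over the whole table. Ccl3, Ccl5, Cx3cl1, Cxcr6 and Ackr4 were not called with the block. Counts near the floor of 3 limit Ccl4, Ccl8, Cx3cl1 and Ackr4, among others.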

Other observations

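The platelet chemokines Pf4 (CXCL4) and Ppbp (CXCL7) carry names outside the rule for members and were picked after their values were seen. Pf4 had 5.82, 1.19 and 0.805 CPM in WT and 7.71, 5.71 and 35.7 CPM in CgA-KO livers (log2 fold change 2.75 ± 0.89, edgeR adjusted p = 0.0768), with CgA-KO replicate 3 highest. Ppbp had 0.627, 0.893 and 1.19 CPM in WT and 2.51, 18.7 and 1.57 CPM in CgA-KO livers (3.04 ± 0.89, adjusted p = 0.0577), with CgA-KO replicate 2 highest. The summed level of 5 megakaryocyte and platelet markers was 4.21, 2.89 and 5.51 CPM in WT and 6.73, 20.4 and 5.92 CPM in CgA-KO livers, highest in CgA-KO replicate 2, and of the 4 tested 0 were called by edgeR or DESeq2, while 3 had an unadjusted p-value under 0.05. Xcr1, the receptor of Xcl1 on cross-presenting dendritic cells, had 1.43, 0.383 and 0.974 CPM in WT and 1.58, 2.06 and 1.61 CPM in CgA-KO livers (0.96 ± 0.51, adjusted p = 0.249).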
